A study of Mus musculus with 12 samples.

Results

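Interferon-stimulated genes are the genes that cells switch on when interferons bind their receptors. Here 46 mouse genes of this kind, together with the sensors of foreign RNA and the transcription factors that drive them, were followed in 4 groups of cultured neural cells. All 46 were found among the 45706 genes of the count table through their Ensembl identifiers, and 41 passed the filter on low counts over the 12 libraries. Oas2, Oasl1, Mx1, Mx2 and Zbp1 did not pass and are given as levels. The set was chosen by expression values of these same libraries, being proposed with the levels of the 4 groups in view, so the counts and fold changes of its members are a description and carry no p-values.

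All cells came from mouse embryonic stem cells that carry GFP in one copy of Sox1, and the labels give the strain as C57BL/6. NPC are neural progenitor cells, labelled Baseline and as Sox1-negative glial progenitors that were not sorted. NPC(+) are the same kind of cell in which dCas9-VP64, a Cas9 that does not cut and carries an activator, was aimed at the promoter of Sox1, sorted for the GFP reporter. The libraries labelled NSC hold unsorted neuroepithelial cells and those labelled NR hold neural rosettes sorted for GFP. NPC lines with dCas9-VP64 were grown from single cells after lentiviral delivery, replicates were made on different days and from different clonal lines, and which lines and viruses each NPC library carried is not stated in the sources used here. Each group had 3 replicates.

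The targeted gene is given first. NPC(+) were sorted for the GFP carried in Sox1 and NPC are labelled Sox1-negative. Higher Sox1 in NPC(+) therefore follows from how the groups were made, and its p-value is no test of the activation. Sox1 stood at 4.83, 6.00 and 5.43 CPM (counts relative to the size of the library, scaled with TMM factors) in NPC and at 20.3, 20.9 and 21.7 in NPC(+), which is 1.97 ± 0.43 as log2 fold change ± standard error, with an adjusted p of 0.00221 in edgeR's quasi-likelihood test. It stood at 48.6, 64.9 and 51.8 CPM in NSC and, in NR, at 4.62 CPM in replicate 1 and no lower than 19.2 in the other replicates, so replicate 1 of the GFP-sorted rosettes was at the level of NPC. Total counts ran from 4939268 to 18351483 in NPC, from 3407066 to 6315574 in NPC(+), from 29046205 to 43095688 in NSC and from 16707006 to 34594885 in NR. A gene with no more than 3 counts in each library of a group is called at the floor there, and 3 counts were worth 0.408 CPM on average in NPC libraries, 0.613 for NPC(+), 0.0874 for NSC and 0.122 for NR.

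Interferons of the alpha and beta type bind a receptor made of Ifnar1 and Ifnar2, whose kinases phosphorylate Stat2. Stat2 and Irf9 are parts of a complex that binds the interferon-stimulated response element, a pair of GAAA boxes in the promoters of its targets. RIG-I (Ddx58), MDA5 (Ifih1) and LGP2 (Dhx58) detect foreign RNA in the cytoplasm and signal through Mavs to Irf3 and Irf7, which switch on the interferon genes. Stem cells of several tissues are known to hold some of these genes at a steady level without infection, and pluripotent cells are known to respond weakly to interferon.

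The promoter sequences show what the members share beyond their names. Of the 46 members 35 had a promoter in the RefSeq table for GRCm38.p6, which covers 250 bases before and 50 after each start. The core of the response element, GAAANNGAAA on either strand, was present in the promoters of 20 of these 35 members (57.1%) and in those of 3.99% of all 27025 genes of the table. In the 250 bases before the start alone it was present for 16 members (45.7%) and for 3.46% of all genes. The gamma-activated site TTCNNNGAA, bound by pairs of STAT proteins, was present for 9 of the 35 (25.7%) and for 9.55% of all genes, and 2 of its 10 matches in members shared bases with a response element core. The windows below are the stretches around the core for members whose levels are described later, read 5′ to 3′ on the strand of the gene, with the core in capitals. Cores that read from TTTC to TTTC lie on the other strand. Ifit1 (chr19:34640765-34640833, plus strand), Ifit3 (chr19:34583353-34583436, plus strand), Ifit3b (chr19:34607749-34607832, plus strand) and Isg15 (chr4:156200855-156200916, minus strand) were near zero in both NPC groups. Oas1a (chr5:120907526-120907565, minus strand), Oas1g (chr5:120887614-120887651, minus strand), Oas3 (chr5:120777705-120777754, minus strand) and Bst2 (chr8:71537567-71537622, minus strand) were highest in NR. Stat2 (chr10:128270256-128270305, plus strand) and Cxcl10 (chr5:92349073-92349122, minus strand) were higher in NPC(+) than in NPC. These groupings overlap, and no link between them and the sequences was tested. Oas1a, Oas1g, Oas3 and Bst2 were also near zero in both NPC groups, and the means of Ifit1 and Isg15 were also highest in NR.
Ifit1: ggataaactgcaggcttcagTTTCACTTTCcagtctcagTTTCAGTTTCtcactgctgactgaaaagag
Ifit3: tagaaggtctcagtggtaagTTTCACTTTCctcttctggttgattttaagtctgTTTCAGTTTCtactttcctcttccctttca
Ifit3b: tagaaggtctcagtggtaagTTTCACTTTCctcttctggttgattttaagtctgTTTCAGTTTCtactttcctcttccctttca
Isg15: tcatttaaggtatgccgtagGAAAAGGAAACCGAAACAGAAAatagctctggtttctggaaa
Oas1a: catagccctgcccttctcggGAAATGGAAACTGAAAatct
Oas1g: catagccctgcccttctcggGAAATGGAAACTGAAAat
Oas3: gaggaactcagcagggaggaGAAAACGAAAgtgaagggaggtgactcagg
Bst2: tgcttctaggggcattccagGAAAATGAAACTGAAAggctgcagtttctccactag
Stat2: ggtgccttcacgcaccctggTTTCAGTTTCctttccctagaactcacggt
Cxcl10: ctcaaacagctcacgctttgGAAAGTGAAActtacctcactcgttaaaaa

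The windows of Ifit3 and Ifit3b were identical over their 84 bases, and those of Oas1a and Oas1g differed in length only. Both pairs are copies of each other (97.8% identity over 1700 bases of transcript for the first and 97.6% over 1861 bases for the second), so how their reads were divided is uncertain. Isg15 has a near copy, AC151275.1, that shares 95.2% of 482 bases. Exons of Ifi35, Rtp4, Herc6, Gbp7, Igtp and Cxcl10 overlap those of other annotated genes over 5.91% to 16.8% of their bases, which the count table cannot separate. The other gene lies on the opposite strand for Ifi35 and Cxcl10 and on the same strand for Rtp4, Herc6, Gbp7 and Igtp. Cores in the promoters of Gbp2, Gbp3 and Irgm1 lay in stretches that GENCODE annotates as exon and are not printed. Many members sit side by side in the genome (GRCm38). The 4 Ifit genes lie between 34550694 and 34650009 on chromosome 19, Oas1a, Oas1g, Oas2 and Oas3 between 120730333 and 120907521 on chromosome 5, Gbp2, Gbp3 and Gbp7 between 142530342 and 142638008 on chromosome 3, Parp14, Dtx3l and Parp9 between 35832874 and 35972605 on chromosome 16, and Rsad2 and Cmpk2 between 26442746 and 26479837 on chromosome 12.

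More members were at the floor in NPC and NPC(+) than in NSC and NR. In NPC 26 of the 46 members were at the floor, 6 of them with no count in any library, and in NPC(+) 26 were at the floor and 12 had no count. In NSC 1 member, Mx1, was at the floor, and in NR none was. NSC and NR were sequenced more deeply, and 19 of the 26 members at the floor in NPC had a mean in NSC above the CPM value of the NPC floor, as did 24 in NR and 2 in NPC(+). The mean level was highest in NR for 36 members, in NSC for 4, in NPC(+) for 3 and in NPC for 3. Neither this count nor that of members at the floor was set beside all genes, so both are a description. Among all genes tested 44.2% were higher in NR than in NPC and 29.5% higher in NR than in NSC. Per kb of exon the most abundant member in every group was Ifitm3, a membrane protein that blocks virus entry, at 71.2 CPM per kb in NPC and 36.6 in NPC(+), rising to 92.9 in NSC and 258 in NR. Ifi27 came next in NPC (22.1 CPM per kb) and NPC(+) (24.1), and Bst2 in NSC (12.0) and NR (33.4). In bulk libraries a change in the share of cells that express a gene and a change in the RNA of each cell cannot be told apart.

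**Figure D1:**
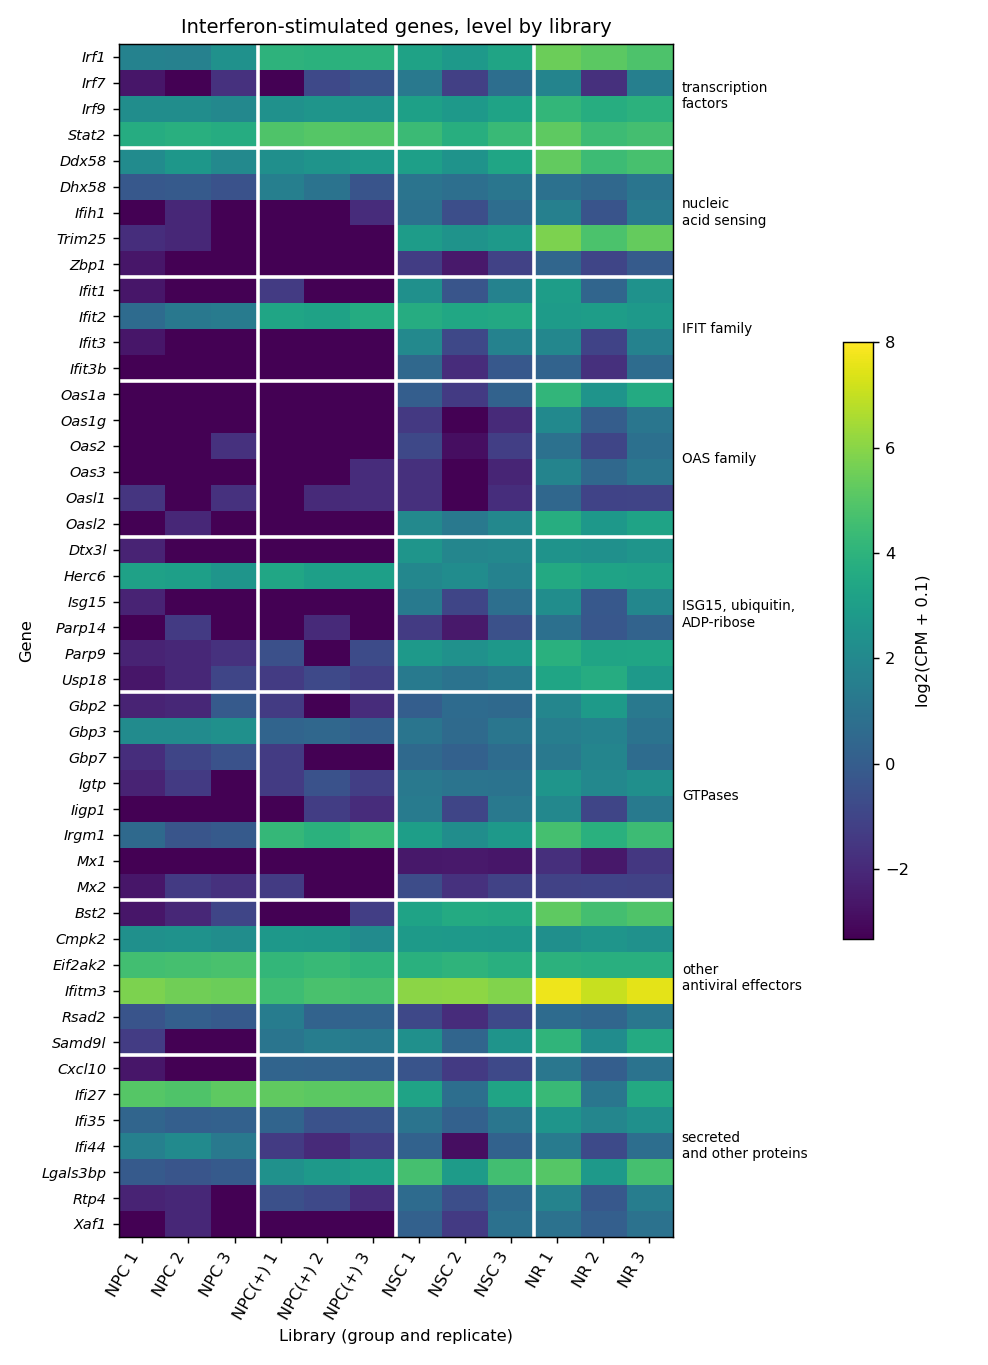
Level of the 46 interferon-stimulated genes (rows, grouped by role) in the 12 libraries (columns), as log2(CPM + 0.1) on the colour scale. NPC and NPC(+) are dark for most genes, NSC and NR are lighter, and replicate 2 of NSC and of NR is darker than its group for genes such as Ifit1, Ifit3, Irf7 and Ifi27.

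In NPC(+) against NPC, 8 of the 41 tested members passed as higher and 4 as lower (adjusted p under 0.1 and p under 0.05), beside 21.6% higher and 22.7% lower among all 17003 genes tested. In NSC against NPC 31 were higher and 6 lower, beside 42.7% and 32.5% of all genes. In NR against NPC 35 were higher and 3 lower, beside 44.2% and 32.8%. In NR against NSC 23 were higher and 1 lower, beside 29.5% and 25.8%. The members' counts are given as a description only, because these comparisons were known when the set was proposed, and the first 3 comparisons share the NPC libraries. Of the 41 tested members 19 were at the floor in both NPC and NPC(+) and passed the filter only through NSC or NR. Against NPC these 19 could come out higher or not pass, so the counts for NSC and NR are partly set by the filter. This also holds for genes of the other lists that were at the floor in both. The median log2 fold change of the members was 0.64, 2.24 and 3.98 in NPC(+), NSC and NR against NPC, and 0.99 in NR against NSC, over the 22, 39, 41 and 41 tested members with a fold and with members at the floor placed at their bound or counted ratio. The median of the fitted values over all 41 was 0.18, 3.58, 4.73 and 0.99, and that of all genes tested was 0.00, 0.20, 0.19 and 0.01. Because so many members were at the floor in NPC, folds against it are given below as ratios of summed counts with an exact 95% interval, or as lower bounds where NPC had no count. Intervals and floors cover counting error only. With every library thinned to the smallest total, 27 members could be tested, of which 15 were higher in NSC and 19 in NR than in NPC, and 10 were higher in NR than in NSC. The shares over all genes in thinned libraries are not given here.

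Among the transcription factors, Stat2 and Irf1 rose in NPC(+) and Irf9 did not pass. Stat2, the activating subunit of the response complex, was at 12.8, 13.95 and 12.7 CPM in NPC and 29.2, 31.9 and 29.9 in NPC(+), a log2 fold change of 1.21 ± 0.21 with groups that did not overlap. In NSC it stood at 20.6, 13.7 and 20.2 CPM and in NR at 36.0, 21.3 and 24.8, log2 fold changes of 0.47 ± 0.20 and 1.05 ± 0.20 against NPC, and replicate 2 of NSC lay within the NPC range, so that the NSC difference no longer passed without NSC replicate 1 or 3 or any 1 of the NPC libraries. The mean of Stat2 was highest in NPC(+), at 30.3 CPM beside 27.4 in NR, but the NPC(+) libraries lay within the range of NR. Irf1, a factor that responds to interferon gamma and to NF-kB, was at 3.10, 3.07 and 5.22 CPM in NPC, 15.6, 14.8 and 15.2 in NPC(+), 9.06, 6.97 and 9.75 in NSC, with 44.0, 35.0 and 28.7 in NR. The 4 groups did not overlap for Irf1, and the log2 fold changes against NPC were 2.07 ± 0.24, 1.26 ± 0.23 and 3.31 ± 0.23. Irf9, the DNA-binding subunit of the complex, was at 4.65, 4.60 and 3.76 CPM in NPC and 5.21, 5.81 and 5.67 in NPC(+), a log2 fold change of 0.34 ± 0.21. It rose to 8.61, 6.91 and 9.30 CPM in NSC and 18.2, 13.3 and 15.2 in NR (0.91 ± 0.19 and 1.82 ± 0.19 against NPC). Irf7, the factor that amplifies interferon production, had 1, 0 and 1 counts in NPC and 0, 3 and 4 in NPC(+), which overlap. In NSC it was at 2.28, 0.345 and 1.58 CPM and in NR at 3.39, 0.194 and 2.87, with replicate 2 the lowest in both and, in NR, inside the NPC range. Its ratio to NPC was 22.1 (6.03 to 184) in NSC and 28.3 (7.70 to 235) in NR.

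Of the 4 tested members that sense nucleic acids or help to, all 4 were higher in NR and in NSC than in NPC, and 2, Ddx58 and Trim25, were higher in NR than in NSC. Ddx58 (RIG-I, which binds RNA with 5′ triphosphates) was at 4.36, 6.28 and 3.97 CPM in NPC, 4.92, 5.65 and 6.84 in NPC(+), 8.26, 5.56 and 9.91 in NSC, with 38.3, 21.7 and 26.2 in NR. Only the NR libraries stood apart from those of NPC, with a log2 fold change of 2.56 ± 0.27 against NPC and 1.85 ± 0.24 against NSC, while that of NPC(+) was 0.27 ± 0.31. Ifih1 (MDA5, which binds long double-stranded RNA) had 0, 1 and 0 counts in NPC and 0, 0 and 1 in NPC(+), and stood at 1.74, 0.552 and 1.55 CPM in NSC and 2.96, 0.677 and 2.42 in NR. Dhx58 (LGP2, which tunes both) was at 0.776, 0.837 and 0.626 CPM in NPC and 2.90, 1.88 and 0.667 in NPC(+), where replicate 3 lay within the NPC range, for a log2 fold change of 1.15 ± 0.47 that no longer passed without NPC(+) replicate 1 or 2 or any 1 of the NPC libraries. Its level was 1.92, 1.66 and 2.10 CPM in NSC and 1.79, 1.32 and 2.02 in NR, and NR did not differ from NSC beyond the spread (-0.15 ± 0.32). Trim25, the ubiquitin ligase that helps RIG-I signal, had 3, 1 and 0 counts in NPC and none in NPC(+), and reached 7.63, 5.46 and 6.64 CPM in NSC and 54.0, 27.3 and 40.4 in NR, a ratio to NPC of 274 (107 to 1006) in NR. Zbp1, a sensor of Z-form nucleic acid, was under the filter, with 1, 0 and 0 counts in NPC, none in NPC(+), 14, 2 and 12 in NSC and 20, 13 and 30 in NR.

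**Figure D2:**
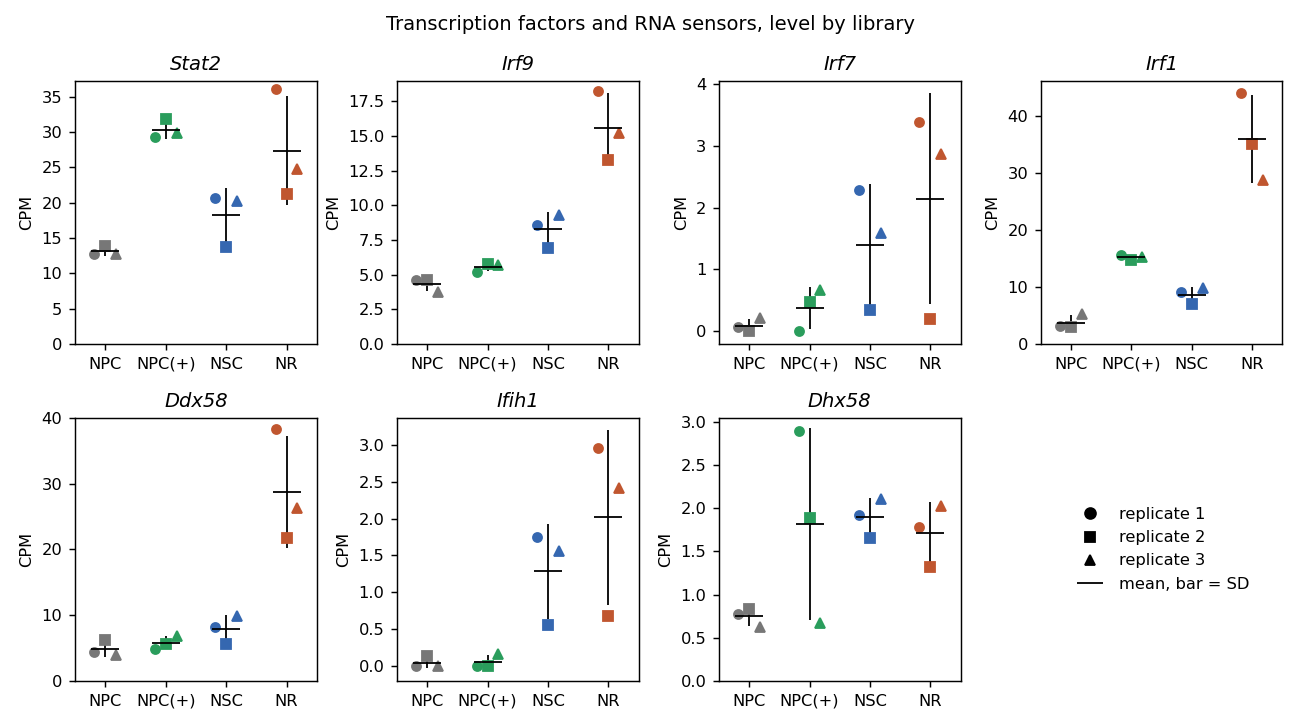
Level in CPM of 4 transcription factors and 3 RNA helicases in each library, by group, with the mean and SD of 3 replicates. Irf1 and Stat2 are higher in all 3 NPC(+) libraries than in NPC, Ddx58 stands out in NR, and replicate 2 (squares) is the lowest of its group for Irf7 and Ifih1 in NSC and NR.

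The IFIT proteins bind viral RNA that lacks the cap of the host. Ifit2 was above the floor in every group, and it was higher in all 3 groups than in NPC. It stood at 1.43, 2.23 and 2.504 CPM in NPC, 9.84, 9.11 and 12.5 in NPC(+), 12.8, 10.497 and 11.5 in NSC, with 7.39, 7.68 and 6.77 in NR. Every NPC library was below every library of the other groups, and the log2 fold changes against NPC were 2.45 ± 0.24, 2.59 ± 0.23 and 1.92 ± 0.23. Ifit2 was also the single member that was lower in NR than in NSC (-0.67 ± 0.18). Its neighbours behaved otherwise. Ifit1 had 1, 0 and 0 counts in NPC and 1, 0 and 0 in NPC(+), and stood at 4.99, 0.691 and 3.11 CPM in NSC and 7.76, 1.19 and 5.31 in NR. Ifit3 had 1 count over the 6 NPC and NPC(+) libraries, and stood at 3.98, 0.449 and 3.17 CPM in NSC and 3.63, 0.387 and 3.15 in NR. Ifit3b had none in those 6 libraries and stood at 1.32, 0.173 and 0.762 CPM in NSC and 1.11, 0.194 and 1.49 in NR. In both groups replicate 2 was several times lower than replicates 1 and 3 for these genes. The ratio to NPC was 93.1 (16.6 to 3686) for Ifit1 in NSC and 79.6 (14.2 to 3153) for Ifit3, and Ifit3b was at least 1.84-fold higher.

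The OAS enzymes make the messenger that activates the nuclease RNase L and, in these libraries, had their highest mean levels in NR. Oas1a had no count in NPC or NPC(+) and stood at 0.940, 0.276 and 1.097 CPM in NSC and 17.5, 5.65 and 12.2 in NR. The NR libraries were at least 28.9-fold higher than NPC and a log2 fold of 3.89 ± 0.53 higher than NSC. Oas1g stood at 0.268, 0 and 0.152 CPM in NSC and 4.06, 0.903 and 2.11 in NR (3.84 ± 0.75), and Oas3 at 0.201, 0 and 0.122 and 3.33, 1.32 and 2.08 (4.14 ± 0.61), with 1 count of Oas3 and none of Oas1g over the 6 NPC and NPC(+) libraries. These were the 3 members with the highest fold of NR over NSC, and their groups did not overlap. Oasl2 had 0, 1 and 0 counts in NPC and none in NPC(+), and stood at 3.92, 2.28 and 3.78 CPM in NSC and 13.1, 6.48 and 9.44 in NR, a ratio to NPC of 98.4 (17.6 to 3899) and 260.0 (46.5 to 10284). Oas2 and Oasl1 were under the filter, with at most 1.79 CPM in any library.

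Isg15 is a ubiquitin-like protein that is attached to other proteins, and Usp18 removes it and dampens the interferon receptor. Isg15 had 2, 0 and 0 counts in NPC and none in NPC(+), and stood at 2.33, 0.414 and 1.65 CPM in NSC and 4.56, 0.774 and 3.68 in NR. Usp18 had 1, 1 and 2 counts in NPC and 1, 3 and 2 in NPC(+), and stood at 2.33, 1.90 and 2.35 CPM in NSC and 9.85, 12.7 and 6.72 in NR. Its replicates were closer to each other than those of Isg15, and NR was higher than NSC by 2.15 ± 0.27 on the log2 scale without overlap. Parp9, Parp14 and Dtx3l, which transfer ADP-ribose or ubiquitin, lay at the floor in both NPC groups. Parp9 stood at 6.94, 5.18 and 6.46 CPM in NSC and 14.4, 9.55 and 9.86 in NR, and Dtx3l at 5.84, 3.52 and 3.84 and 5.603, 5.10 and 5.90, ratios to NPC of 45.3 (17.6 to 167) and 65.9 (18.2 to 546) in NSC. The exons of Parp9 and Dtx3l share 458 bases on opposite strands, and the library kit does not mark strand, so reads there cannot be assigned by strand. Parp14 was lower, at up to 0.61 CPM in NSC and 1.72 in NR. Herc6, the mouse ligase that attaches Isg15, was expressed in all groups, at 8.71, 8.37 and 5.84 CPM in NPC, 10.4, 8.17 and 8.17 in NPC(+), 3.65, 4.45 and 3.17 in NSC, with 11.8, 9.52 and 8.85 in NR. NSC was the low group for Herc6, -1.05 ± 0.21 against NPC. Of the 5 other members of its role, 4 were higher in NSC than in NPC and Parp14 did not pass.

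The interferon-inducible GTPases coat or tether compartments that hold pathogens, and they split in NPC(+). Irgm1, which regulates the others, rose from 1.37, 0.698 and 0.835 CPM in NPC to 18.5, 14.9 and 19.7 in NPC(+), a log2 fold change of 4.03 ± 0.34, the highest fitted one of any member above the floor in that comparison. It stood at 8.14, 4.52 and 6.80 CPM in NSC and 24.9, 14.7 and 21.4 in NR, so NPC(+) lay above NSC and within the range of NR. Gbp3, a guanylate-binding protein, fell in NPC(+) from 4.36, 4.32 and 5.01 CPM to 1.16, 1.26 and 1.00 (-1.99 ± 0.33). It was also lower than NPC in NSC, at 2.01, 1.42 and 2.07 CPM, and in NR, at 2.77, 3.16 and 1.88, with -1.30 ± 0.26 and -0.80 ± 0.26, though in libraries thinned to the smallest total the NR value was 0.21. Gbp2 stood at 0.119, 0.140 and 0.835 CPM in NPC, 0.290, 0 and 0.167 in NPC(+), 0.940, 1.45 and 1.34 in NSC, with 3.57, 7.16 and 2.28 in NR, where replicate 2 was the highest. Gbp7 followed the same order in NR, at 2.28, 3.42 and 1.49 CPM. Gbp3 and Gbp7 share 81.5% of 1626 aligned bases, and Gbp2 shares 83.8% of 1709 with Gbp2b. Igtp reached 2.28, 1.93 and 1.86 CPM in NSC and 5.85, 3.81 and 4.95 in NR, a ratio to NPC of 14.8 (5.69 to 54.7) and 33.7 (13.1 to 124). Iigp1 had no count in NPC and 0, 2 and 1 in NPC(+), and stood at 2.51, 0.414 and 2.29 CPM in NSC and 3.76, 0.419 and 2.44 in NR, with replicate 2 the lowest in both. Mx1 and Mx2 were under the filter, at no more than 0.253 and 0.515 CPM in any library, and GENCODE annotates Mx2 as a polymorphic pseudogene.

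Among the other antiviral effectors, Samd9l rose and Ifitm3 and Eif2ak2 fell in NPC(+). Samd9l, an inhibitor of translation, was at 0.298, 0 and 0 CPM in NPC and 2.03, 2.67 and 2.34 in NPC(+), a log2 fold change of 3.78 ± 1.07 from 5, 0 and 0 counts. It stood at 5.03, 1.21 and 5.79 CPM in NSC and 16.9, 4.39 and 12.1 in NR, with replicate 2 of NSC below NPC(+). Ifitm3 was at 54.2, 47.0 and 43.6 CPM in NPC, 22.0, 27.2 and 25.4 in NPC(+), 65.2, 66.8 and 56.9 in NSC, with 207, 130.5 and 187 in NR. The 4 groups did not overlap, and the log2 fold changes against NPC were -0.96 ± 0.17, 0.37 ± 0.15 and 1.85 ± 0.15. Eif2ak2, the kinase PKR that stops translation on double-stranded RNA, was highest in NPC at 23.6, 25.0 and 27.1 CPM and stood at 17.9, 19.6 and 17.0 in NPC(+), 14.6, 16.6 and 14.2 in NSC, with 15.5, 13.97 and 14.2 in NR. Its log2 fold changes against NPC were -0.46 ± 0.13, -0.73 ± 0.12 and -0.79 ± 0.12, and its NPC libraries did not overlap with those of the other groups. Bst2 (tetherin, which holds budding virus at the membrane) had 1, 1 and 2 counts in NPC and 0, 0 and 2 in NPC(+), and stood at 9.37, 11.9 and 11.2 CPM in NSC and 35.9, 24.8 and 29.7 in NR, ratios to NPC of 76.1 (29.7 to 279.9) and 209 (81.4 to 767). Rsad2 (viperin) and Cmpk2, which lie side by side and make and supply an antiviral nucleotide, went different ways. Rsad2 stood at 0.656, 0.977 and 0.835 CPM in NPC, 2.61, 1.099 and 1.17 in NPC(+), 0.447, 0.173 and 0.457 in NSC, with 1.48, 1.23 and 2.16 in NR, with -1.09 ± 0.48 in NSC and 1.04 ± 0.44 in NR against NPC, neither of which passed without any 1 of the NPC libraries. Cmpk2 stayed between 4.34 and 7.16 CPM in all 12 libraries, and its log2 fold change was 0.17 ± 0.21 in NPC(+), 0.44 ± 0.19 in NSC and 0.09 ± 0.19 in NR.

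The secreted and remaining members included Cxcl10 and Lgals3bp, which were higher in NPC(+), and Ifi44, which was lower. Cxcl10, a chemokine that attracts T cells, had 1, 0 and 0 counts in NPC and 4, 7 and 6 in NPC(+), a ratio of 30.9 (4.84 to 1289.8) whose interval is wide at these counts, and stood at 0.671, 0.276 and 0.457 CPM in NSC and 2.16, 0.936 and 1.91 in NR. Lgals3bp, a secreted glycoprotein, was at 0.835, 0.698 and 0.835 CPM in NPC and 5.21, 6.75 and 8.01 in NPC(+), a log2 fold change of 3.08 ± 0.78. Its level in NSC was 25.1, 7.35 and 24.0 CPM and in NR 32.4, 6.87 and 25.1, so replicate 2 of both groups was at the level of NPC(+). Ifi44 was at 2.98, 4.19 and 2.30 CPM in NPC and had 1, 1 and 2 counts in NPC(+), lower by a ratio of 12.5 (4.73 to 47.0). In NSC it stood at 1.07, 0.0345 and 1.07 CPM and in NR at 2.52, 0.484 and 1.63, and the latter overlapped NPC in replicate 1. Ifi27, a mitochondrial protein, was high and even in NPC (31.9, 29.3 and 36.1 CPM) and NPC(+) (37.1, 35.3 and 33.5), which overlapped (0.12 ± 0.62). It was lower in NSC at 9.31, 1.62 and 9.63 CPM and in NR at 20.3, 2.10 and 11.8 (-2.22 ± 0.63 and -1.54 ± 0.62). Ifi35 was at 1.19, 0.977 and 1.04 CPM in NPC and 5.85, 3.58 and 5.03 in NR (2.13 ± 0.35), Rtp4 reached at most 3.26 CPM and Xaf1 at most 1.85, both in NR.

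**Figure D3:**
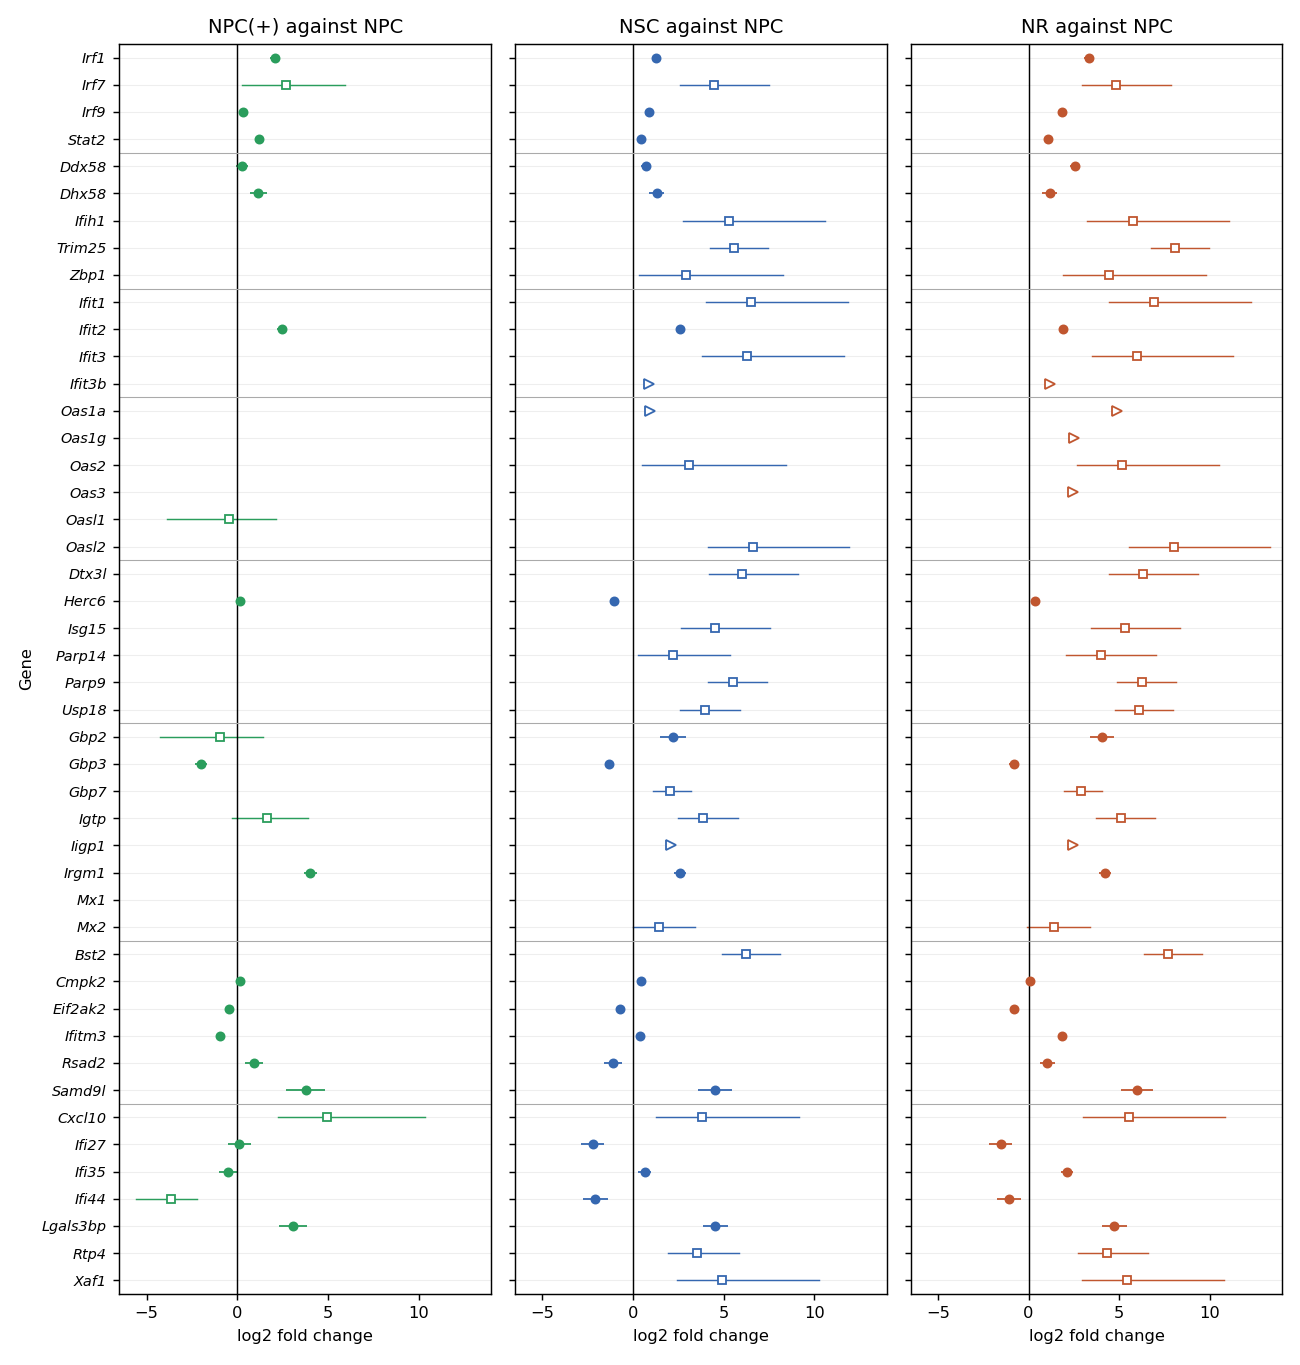
Log2 fold change of the members in NPC(+), NSC and NR against NPC. Filled points are fitted values with their standard errors, open squares are ratios of summed counts with exact 95% intervals where one group was at the floor, and triangles are lower bounds where NPC had no count. Members without a symbol in a panel were at the floor in both groups, lay below the NPC floor or, with levels above it, were not tested. In NPC(+) the fitted points run from -1.99 for Gbp3 to 4.03 for Irgm1.

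The ligands of the pathway were at or near 0 counts. Ifnb1 had 0 counts in all 12 libraries, which allows at most 3 counts in any of them, and the 6 alpha interferons, Ifne, Ifnk, Ifnz, Ifnl2 and Ifnl3 had at most 2 counts in a library. Ifng had at most 5. Of the 6 receptor chains tested, 1 rose and 2 fell in NPC(+). Ifnar1 fell from 80.7, 89.3 and 86.8 CPM in NPC to 55.0, 53.9 and 51.5 in NPC(+) (-0.68 ± 0.08, adjusted p = 1.9e-05), and Il10rb, a chain of the lambda interferon receptor, from 16.1, 14.6 and 12.9 to 3.18, 4.55 and 5.17 (-1.73 ± 0.25, adjusted p = 9e-05). Ifngr1 rose by 0.46 ± 0.15 on the log2 scale (adjusted p = 0.0253). Ifnar2 stood at 34.4, 35.2 and 34.0 CPM in NPC and 33.9, 29.8 and 21.5 in NPC(+) (-0.29 ± 0.15, adjusted p = 0.140), and fell to 10.6, 11.74 and 10.6 CPM in NSC and 11.1, 10.2 and 11.0 in NR (-1.65 ± 0.14 and -1.68 ± 0.15, adjusted p = 1.8e-07 and 1.6e-07). Ifnlr1, the other chain of the lambda receptor, had no count in NPC or NPC(+) and stood at 0.492, 0.104 and 0.335 CPM in NSC and 1.42, 1.13 and 0.646 in NR, where it was at least 2.61-fold higher than NPC. These p-values are from edgeR's quasi-likelihood test over 17003 genes. NSC and NR, with the higher levels of most members, had less Ifnar2 transcript than NPC.

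Of the signal transducers and feedback genes, 5 of 21 tested rose and 6 fell in NPC(+), 9 rose and 8 fell in NSC, and 12 rose and 6 fell in NR, each against NPC. The shares over all genes were 21.6% higher and 22.7% lower in NPC(+), 42.7% and 32.5% in NSC, and 44.2% and 32.8% in NR, and they are the background of this list and of those that follow. Irf3, the factor that starts interferon production, fell in all 3 groups, from 34.3, 30.6 and 38.8 CPM in NPC to 18.5, 25.1 and 22.0 in NPC(+) (-0.64 ± 0.13, adjusted p = 0.00138). Irf8, a factor best known from myeloid cells and microglia, rose from 0.537, 1.26 and 0.209 CPM to 2.03, 3.45 and 3.67 (2.22 ± 0.40, adjusted p = 0.00056) and stood at 9.19, 9.67 and 9.63 in NSC. Stat4, which interferons can also activate, was at most 0.427 CPM outside NR and 6.84, 3.10 and 5.23 in it (4.10 ± 0.50 against NSC). It passed the filter on low counts through NR, where it was high, so this change is a description only. Ptpn6 (SHP-1, a phosphatase that restrains cytokine receptors) fell in NPC(+) from 5.43, 5.44 and 6.26 to 1.45, 0.471 and 1.17 CPM (-2.55 ± 0.35, adjusted p = 5.8e-05) and rose to 34.3, 24.3 and 25.7 in NR. Irf2bp2, a corepressor, fell, with log2 fold changes of -1.43 ± 0.18 in NPC(+), -1.37 ± 0.17 in NSC and -1.58 ± 0.17 in NR.

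The other nucleic acid sensors and adaptors gave 5 rises and 6 falls among 19 tested in NPC(+). Tmem173 (STING, the adaptor for cytosolic DNA) was the most abundant of those that rose, from 80.4, 72.0 and 60.9 CPM in NPC to 279, 269 and 264 in NPC(+) (1.92 ± 0.34, adjusted p = 0.00053). In NSC it stood at 1.31 to 3.23 CPM and in NR at 7.70, 1.39 and 5.54, -4.89 ± 0.41 and -3.95 ± 0.39 against NPC, the reverse of the order of most members. Cgas, the enzyme upstream of STING, was at or under 0.334 CPM in every NPC and NPC(+) library and stood at 0.828, 0.898 and 1.22 CPM in NSC. Ikbke, a kinase of Irf3, rose in NPC(+) from 0.597, 0.279 and 0.209 to 1.74, 2.98 and 3.34 CPM (2.67 ± 0.54, adjusted p = 0.00142), and Nlrx1, a mitochondrial restraint on Mavs, by 1.30 ± 0.38 (adjusted p = 0.0142). Mavs itself fell from 24.0, 24.4 and 25.3 to 9.26, 13.3 and 8.84 CPM (-1.21 ± 0.17, adjusted p = 6.4e-05) and Myd88, the adaptor of Toll-like receptors, from 5.01, 3.63 and 4.59 to 1.16, 1.88 and 1.17 (-1.62 ± 0.30, adjusted p = 0.00072). Rnf125 and Rnf135, ubiquitin ligases that act on RIG-I, rose in NR, to 20.6, 8.71 and 16.2 and 5.91, 3.90 and 4.66 CPM (3.69 ± 0.42 and 3.22 ± 0.56 against NPC, adjusted p = 2.1e-06 and 0.00014). Ifi204, a DNA sensor, had 1 count over the NPC libraries and stood at 4.12, 0.242 and 2.96 CPM in NSC and 4.06, 0.452 and 2.30 in NR, low in replicate 2 of both. Of the 9 tested enzymes that edit or clear self nucleic acids, 2 rose and 2 fell in NPC(+). The subunits of RNase H2 went different ways, Rnaseh2a by -0.75 ± 0.09 (adjusted p = 1.9e-05), Rnaseh2b by 0.76 ± 0.12 (0.00023) and Rnaseh2c by 1.00 ± 0.10 (3.1e-06). Skiv2l, a helicase of the exosome, fell by a small amount (-0.24 ± 0.09, adjusted p = 0.0388). In NR, Dnase2a, which digests DNA in lysosomes, and Samhd1, which removes nucleotides, rose by 1.98 ± 0.20 and 1.43 ± 0.14 against NPC (adjusted p = 6.6e-07 and 4.6e-07).

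A second list of 76 interferon-stimulated genes that are no members was counted in the same way. Of its 54 tested genes, 7 rose and 6 fell in NPC(+), 31 rose and 6 fell in NSC and 39 rose and 7 fell in NR, each against NPC, with median log2 fold changes of 0.31, 1.71 and 3.10. In libraries thinned to the smallest total 31 of them could be tested, of which 13 rose in NSC and 16 in NR. In NR against NSC 30 rose and 5 fell. In NPC(+) the largest changes that passed were falls of Plscr1, a phospholipid scramblase, from 18.1, 18.1 and 15.9 to 2.61, 2.51 and 2.00 CPM (-2.89 ± 0.17, adjusted p = 3.1e-08), and of Tor3a, from 29.0, 33.3 and 29.4 to 8.40, 7.22 and 7.01 (-2.03 ± 0.21, adjusted p = 5.1e-06). Tmem140 also fell (-1.68 ± 0.45, adjusted p = 0.00904). Gbp9 rose from 7.16, 6.42 and 5.22 to 23.2, 22.3 and 21.8 CPM (1.81 ± 0.32, adjusted p = 0.00046), which is opposite to Gbp3. Zc3hav1 (ZAP, which binds CpG-rich viral RNA) had at most 2 counts in any NPC or NPC(+) library and stood at 9.13, 8.46 and 8.11 CPM in NSC and 41.9, 27.4 and 28.5 in NR, a ratio to NPC of 441 (122 to 3644) in NR. It passed the filter on low counts through NSC and NR, so this ratio is a description only. Phf11d stood at 3.60, 1.31 and 4.27 CPM in NSC and 55.7, 29.6 and 40.0 in NR, and Bcl2l14 at 0.380, 0.173 and 0.244 and 9.91, 3.71 and 5.34 (4.48 ± 0.45 in NR against NSC). Ifi211 and Trim30a had no count in NPC and stood at 2.65, 0.290 and 1.80 and 1.85, 0.581 and 1.83 CPM in NR. Of 19 tested genes of the NF-kB response, 5 rose and 2 fell in NPC(+). The chemokine Ccl2 rose from 3, 1 and 0 counts in NPC to 23, 86 and 47 in NPC(+), a ratio of 70.8 (27.1 to 263) (adjusted p = 7.4e-05 for the fitted change), and Tnfaip3 (A20, a brake on NF-kB) by 1.53 ± 0.31 (adjusted p = 0.00129). Ccl7 rose by a ratio of 19.97 (2.90 to 859.6) (adjusted p = 0.0583 for the fitted change), a call lost without NPC replicate 1 or 3 or NPC(+) replicate 3. Nfkbie, an inhibitor of NF-kB, fell (-0.65 ± 0.23, adjusted p = 0.0392), a call lost without NPC replicate 1 or NPC(+) replicate 1 or 3. Bcl3, Cxcl1 and Cxcl5 had no count in NPC and rose in NSC and NR, by at least 9.70-fold, at least 4.98-fold and at least 6.71-fold in NR, and replicate 2 of Cxcl5 was at 10.3% of the mean of the other replicates in NSC and 6.49% in NR, that of Cxcl1 at 30.3% and 26.3%. Cxcl1, Cxcl5, Ccl2, Ccl7 and Vcam1 were the 5 of the 19 genes whose replicate 2 was more than 2-fold below both others in NSC and in NR. Among all 17003 genes tested 1.99% were so, and this rule was set after the values were seen. Traf1 rose by a ratio of 59.6 (10.6 to 2369) in NR.

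Within NSC and within NR many members were low in the same numbered replicate. For 14 of the 41 tested members replicate 2 was more than 2-fold below both other replicates in NSC and again in NR, beside 1.99% of all 17003 genes (338). With replicate 1 or replicate 3 in its place no member did so, and 8 and 5 of all genes did. The 14 were Ifit1, Ifit3, Ifit3b, Isg15, Irf7, Oas1a, Oas1g, Ifih1, Ifi27, Ifi44, Rtp4, Iigp1, Lgals3bp and Samd9l. Replicate 2 of Ifit1 was at 17.1% of the mean of replicates 1 and 3 in NSC and 18.3% in NR, that of Ifi27 at 17.1% and 13.1%, and that of Irf7 at 17.9% and 6.19%. Irf9, Stat2, Ifit2 and Bst2 were more even. Replicate 2 of Irf9 was at 77.1% and 79.5%, of Stat2 at 67.1% and 70.0%, of Ifit2 at 86.4% and 108%, and of Bst2 at 116% and 75.5%. The split cut through families, since Ifit2 was even while Ifit1, Ifit3 and Ifit3b were not. This rule was set after the values were seen.

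Markers of fibroblasts moved with these replicates. The summed level of 8 fibroblast markers was 3443, 932 and 3382 CPM in NSC and 7534, 1417 and 5044 in NR, beside 28.05 to 31.9 in NPC and 32.1 to 41.9 in NPC(+). All 8 were lowest in replicate 2 of both groups, beside 3279 of all 17003 genes. In that replicate 6 of them (Col1a1, Col1a2, Col3a1, Dcn, Lum and Thy1) were more than 2-fold below both others. Col1a1, the main collagen of fibroblasts, stood at 1084, 381 and 1079.9 CPM in NSC and 2985, 413 and 2125 in NR. The part of fibroblast-like cells in the members' levels was not tested. With replicate 2 of both groups left out, 37 of the 43 members then tested were higher than NPC in NSC and 37 in NR. With replicate 2 as the only library of NSC and of NR, 18 and 20 of the 28 members still tested were higher, the single library being assumed to vary like the other groups. Shares over all genes are not given for these settings, which also change the genes tested, so the counts are no result about the members. Bst2, Trim25, Parp9, Dtx3l, Ifit2 and Irgm1 were among the members above every NPC library in replicate 2 of NSC and of NR. Of the members named above as low in that replicate, Irf7, Oas1g, Ifi27 and Ifi44 were not above every NPC library in both groups. The rest of them were, such as Ifit1 (0.691 and 1.19 CPM) and Isg15 (0.414 and 0.774), most over few or no counts in NPC.

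**Figure D4:**
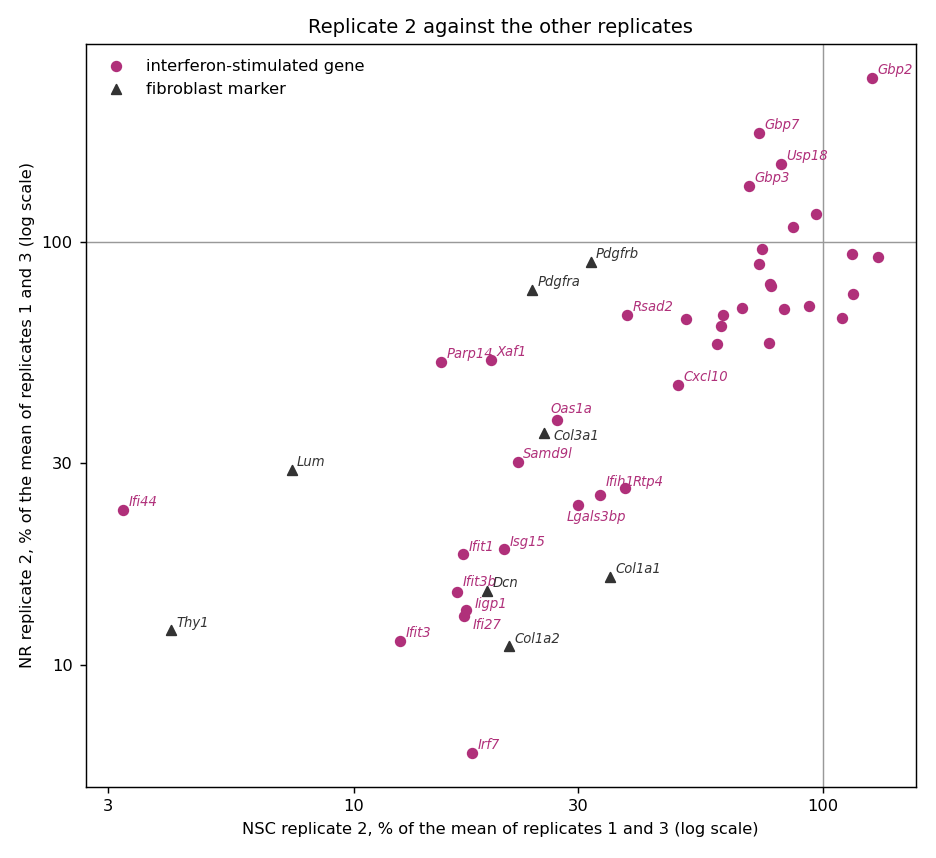
Level of each tested member (circles) and fibroblast marker (triangles) in replicate 2 as a percentage of the mean of replicates 1 and 3, for NSC (x axis) and NR (y axis), both on log scales, with grey lines at 100%. Ifit1, Ifit3, Isg15, Irf7, Iigp1 and Ifi27 lie at the lower left beside Col1a1, Col1a2 and Dcn, while the members without a name, at the upper right, were more even. Oas1g and Oas3 had no count in NSC replicate 2 and are not drawn.

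Other cell type markers gave the following levels. The summed level of 7 markers of pluripotent cells was 1427 to 2741 CPM in NR, 54.8 to 157 in NSC, 34.7 to 45.5 in NPC and 13.6 to 15.3 in NPC(+), so the rosette libraries, where 36 members were highest, also held the most pluripotency transcripts, for example Nanog at 180.5, 113 and 141 CPM. All 7 were lowest in replicate 2 of both NSC and NR, beside 3279 of all 17003 genes, but none was more than 2-fold below both others in both groups. Whether the same cells carried these transcripts and those of the members was not tested. Klf4 made up most of the pluripotency sum in NPC, with mean levels of 33.5 CPM in NPC and 5.79 in NPC(+). Dppa5a was also lower in NPC(+), while the means of Pou5f1, Nanog, Zfp42, Esrrb and Tdgf1 were low in both and higher in NPC(+). Of 14 markers of microglia and macrophages C1qc had no count in any library and 4 were at the floor in all, and their sum was 25.8 to 33.9 CPM in NR and 16.9 to 20.9 in NSC, most of it Tmem119 and Cd68. Of 8 dendritic and lymphoid markers 3 were at the floor in all libraries, Ncr1 among them with no count, and the sum was at most 4.13 CPM. The 7 endothelial markers summed to 104 to 166 CPM in NR and 22.0 to 33.5 in NSC, mostly Pecam1, which pluripotent cells also express, in NR and Flt1 in NSC. In NPC(+) against NPC, the 10 neural progenitor markers summed to 3247 to 3368 CPM against 5748 to 6092, the 8 neuroepithelial markers to 338 to 359 against 215 to 222, and the 5 astrocyte markers to 22.1 to 26.0 against 17.0 to 19.8. Cdh2 made up most of the difference in the neuroepithelial sum, with means of 68.2 CPM in NPC and 148 in NPC(+). That sum includes Sox1, the targeted gene, while the mean of Prom1 was lower in NPC(+) and Ocln had at most 1 count in either group. Slc1a3 made up most of the difference in the progenitor sum, with mean levels of 2605 CPM in NPC and 1182 in NPC(+), while 2 of the 10 went the other way, Nes from 90.2 to 227 and Vim from 688 to 814. The 7 neuronal markers summed to 427 to 442 against 475 to 505 CPM, nearly all of it Map2 (464 CPM in NPC and 402 in NPC(+)), while Dcx stood at 0.537, 0.977 and 0.626 CPM in NPC and 4.05, 5.81 and 3.84 in NPC(+), and the means of Syn1, Tubb3, Elavl3 and Rbfox3 were higher in NPC(+) too. NPC(+) libraries were sorted and NPC libraries were not, by their labels, so sorting, the viral vectors and the activation of Sox1 cannot be told apart as sources of the differences in Stat2, Irf1, Irgm1, Cxcl10 and the rest.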

How the data were processed

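RNA of 12 libraries was extracted with a PicoPure kit and made into libraries with SMART-Seq v4, which does not mark strand. The authors deposited 1 table of raw read counts per Ensembl gene for all libraries, holding whole numbers without normalization. The submitters' processing notes name STAR 2.6, RSEM 1.1.14 and mm10, without saying which step made the table, so how reads shared by similar genes were counted is not given in the sources used here. Genes without a symbol held 0.1241% of counts.

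The deposited counts were filtered with filterByExpr and scaled by TMM, and 17003 genes were tested with edgeR 4.0.16 (quasi-likelihood F test, R 4.3.3, limma 3.58.1) in 1 fit of all 4 groups without a replicate term, with Benjamini-Hochberg adjustment over all genes of each comparison. A gene passed with an adjusted p under 0.1 and a p under 0.05, as in the study but without its limit on fold change. The standard error of a log2 fold change (prior count 0.125) was its size divided by the root of F. Replicates are separate cultures, and their numbers were not used to pair groups. Same-numbered replicates did not deviate together in every pair (correlation of deviations from the group means 0.0625 to 0.0944 for NPC(+) and NPC, -0.221 to -0.00741 for NSC and NPC, 0.0599 to 0.119 for NR and NPC, 0.0448 to 0.375 for NR and NSC). Each NPC(+) and each NR library did correlate best with the NPC library of its own number. This did not hold for NSC and NPC or for NR and NSC. A group with at most 3 counts of a gene in each library was treated as at the floor. Folds were then ratios of counts summed over the group, divided by its summed library sizes, with exact 95% intervals, or lower bounds against 3 counts per library. Promoters came from RefSeq (GRCm38.p6) and gene positions and exons from GENCODE vM21, and similar transcripts were sought with blastn. The procedure was tested on simulated counts. DESeq2 1.42.0, other scalings, filters, thinned counts, a replicate block and leaving out libraries were tried. Python 3.11.15 with pandas 2.3.3, scipy 1.17.1 and matplotlib 3.10.9 made the tables and plots.

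The members and all gene lists were chosen with earlier results of these data known. Named by rule were the 4 factors, the 3 helicases, in each comparison the 5 non-overlapping members with the largest rise and fall among those that passed, and of each pathway list the 4 largest changes that passed in NPC(+) and the 2 largest of each other comparison, with Ifnb1, Ifnar1, Ifnar2, Irf3 and Mavs whatever their values. Some genes that this rule names are not reported here. The replicate comparison, the leaving out of replicate 2 and the genes named for it were added after the values had been seen.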

Additional observations from a re-analysis of the deposited data

How the results depend on the processing

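Upper-quartile scaling, the size factors or Wald test of DESeq2, a prior count of 2, an adjusted p under 0.05 and a fit of only the groups compared moved no count of passed members by more than 1.5 times. A replicate block, fitted although the numbers were not shown to pair the libraries, gave 10 members higher and 4 lower in NPC(+), 34 and 6 in NSC and 35 and 4 in NR against NPC, and 26 and 1 in NR against NSC, with 9 member calls gained and none lost. Leaving out 1 library gave 7 to 8 higher and 4 to 5 lower in NPC(+), 24 to 35 and 5 to 6 in NSC, 33 to 37 and 2 to 4 in NR, and 21 to 31 and 1 to 2 in NR against NSC, the lowest NSC count without NPC replicate 1. The shares over all genes in the block and leave-out fits are not given here, so their counts describe the members only.

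Larger changes came with a stricter filter, thinned libraries and single libraries. Shares over all genes are not given for these settings, so the counts describe the lists only. Requiring at least 10 counts in every library left 10 members to test, of which 3 were higher and 2 lower in NPC(+), 7 and 3 in NSC, 7 higher in NR, and 6 higher in NR than NSC. Among 18 genes of the second list left by that filter, 7 were higher and 3 lower in NR, 5 higher in NSC, 10 higher in NR than NSC and 3 lower in NPC(+). Thinned libraries gave, over 27 members, 15 higher and 1 lower in NSC, 19 higher in NR, 10 higher in NR than NSC and 1 lower in NPC(+), and over 31 genes of the second list 13 higher in NSC, 16 higher and 3 lower in NR, 13 higher and 0 lower in NR than NSC and 2 lower in NPC(+). With no filter 12 genes of the second list were higher in NPC(+). With replicate 2 alone for NSC and NR (added after seeing the data), 18 members were higher in NSC, 20 in NR and 0 lower in NR than NSC, and of the second list 17 were higher and 12 lower in NSC and 3 lower in NR than NSC. With replicates 1 and 3, 2 members were lower in NR than NSC.

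Some differences changed sign. Thinned libraries gave log2 fold changes of -0.55 for Dnase2a in NSC, 0.21 for Gbp3 and -0.32 for Myd88 in NR, each against NPC, and -0.39 for Gbp7 and -0.49 for Il10rb in NR against NSC. With replicate 2 alone Ifngr1 was at 0.014 in NR against NSC. The cause was not tested.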
